A study of Drosophila melanogaster with 6 samples.

Results

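The genes described here drive the cell division cycle and copy DNA in the wing imaginal disc of the fruit fly Drosophila melanogaster: cyclins and their kinases, E2F factors, origin and helicase proteins, and the machinery of mitosis. They were chosen by name. A list of 42 gene symbols was matched to the platform annotation of the array, and every probe set (the group of probes that reports a transcript) whose single gene symbol was on the list was taken. That gave 29 genes with 1 probe set each, of 10844 genes named singly by the array's 13966 fly probe sets. The other 13 listed genes, CycA, Cdk1, stg, wee, dap, Orc6, geminin, Mcm7, RnrS, polo, aurA, pav and BubR1, had no match under those symbols and are not analysed here.

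Wing discs are epithelial sacs in the larva from which the wing blade, its hinge and the notum (the dorsal thorax) of the adult form. Wild-type discs of the third larval instar had been divided into a body wall piece and a piece with the wing and hinge, and total RNA of each was hybridised to 3 Affymetrix arrays, called biological replicates in the labels. No transgene or treatment is named in them, and they give neither sex, strain nor the number of discs per sample. They describe no separate dissections or cultures, so p-values measure only the spread between these arrays.

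Disc cells divide throughout larval growth. Entry into S phase depends on Cyclin E with its kinase Cdk2 and on E2F factors, which switch on replication genes and are held back by Rb proteins. Entry into mitosis depends on Cdk1 with cyclins A, B and B3, and is timed in discs by the phosphatase String, while the anaphase-promoting complex ends mitosis by marking cyclins and securin for destruction. Division is spread widely over the disc epithelium in the larva, with a known exception at the future wing margin, where cells stop dividing late in the third instar.

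The deposited values are intensities scaled by the authors to a common level, with precision limited by the number of arrays. An intensity of 20.4, the 20th percentile of all values, served as the floor. The 23 probe sets for RNA of other organisms (bacteria, mouse, yeast) had a maximum of 91.8 and a 95th percentile of 55.1, which shows where background lies. The fragments carried their own markers. The summed intensity of 7 body wall marker probe sets was 2826 to 3163 in body wall and 404.9 to 530.9 in wing/hinge, and that of 11 wing and hinge marker probe sets was 1293 to 1360 against 7759 to 9811. In the test described below, 5 of the 7 and 6 of the 11 were called, each toward its own fragment. These markers were chosen with earlier results of these data known, so they are no independent check of the dissection. Body wall 1, wing/hinge 1 and wing/hinge 2 had brightest values above 20000 and are called wide-range arrays. The remaining arrays, body wall 2, body wall 3 and wing/hinge 3, are called narrow-range arrays. For the actin control, the ratio of 3' to 5' signal, a sign of RNA or target quality, was 1.92 to 2.98 on the wide-range arrays and 1.12 to 1.28 on the narrow-range ones.

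All 29 genes were above the floor on all 6 arrays, and 27 were above the highest control value on every array. The exceptions were twe and Orc2. No gene of the 29 passed the test between the fragments (limma, Benjamini-Hochberg adjusted p under 0.05 over 11698 probe sets), where the test called 0.915% of all probe sets. The lowest adjusted p among them was 0.427 in limma, shared by Orc2 and Klp61F. Without adjustment, 2 of the 29 had a limma p under 0.05. That held for 8.97% of all probe sets and 5.91% of those above the control maximum on every array. The absence of calls does not show that the genes were equal in the fragments. The 95% intervals say how much difference the arrays leave room for: for 21 of the 29 genes the interval lay inside a 2-fold difference in both directions (log2 values of -1 to 1), against 41.2% of all probe sets and 70.3% of those above the control maximum on every array. These intervals hold for each gene on its own and are not adjusted for the number of genes.

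More of the differences, none of them called, lay on the wing/hinge side. The log2 difference, body wall minus wing/hinge, was below 0 for 22 of the 29 genes, or 75.9%, against 47.3% of all probe sets tested and 50.8% of those above the control maximum on every array. With quantile normalization it was below 0 for 23 of the 29 and 50.1% of all probe sets, and with arrays scaled to the same median for 24 of the 29 and 56.6% of all. Its median was -0.18, with quartiles of -0.30 and -0.05, against a median of 0.03 over all probe sets and -0.01 over the bright ones. In 7 genes, Cdk4, Dp, Orc2, Klp61F, Bub3, fzy and thr, all 3 wing/hinge values lay above all 3 body wall values. That held for 6.53% of all probe sets and for 467 of the 5790 bright ones. None of the 29 had the body wall values on top, against 8.48% of all and 478 of the 5790 bright ones. These counts describe genes chosen by name and measured in the same 6 samples, so they carry no test. In bulk fragments, the share of dividing cells cannot be told apart from the RNA per cell or the mix of cells. Whether these or array quality play a part in the counts was not tested.

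**Figure D1:**
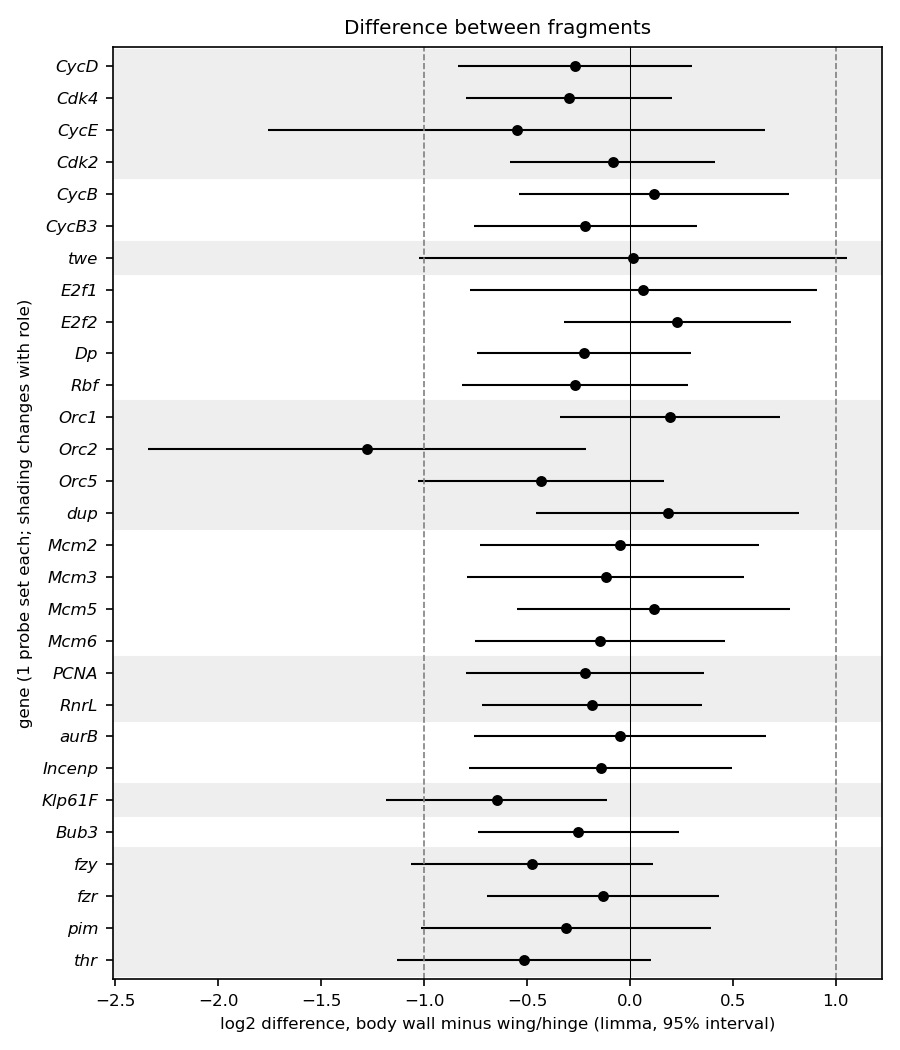
Log2 difference (body wall minus wing/hinge; points) with its 95% interval from limma (lines) for the 29 genes, in order of role with alternating shading; dashed lines mark 2-fold. For 21 genes the interval lies between the dashed lines, and 22 points lie left of 0.

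The G1 and S phase cyclins and kinases all had differences below 0. Cdk4, the kinase partner of Cyclin D in growth and G1 progression, gave 1144, 1345 and 1168 on the body wall arrays and 1582, 1502 and 1399 on the wing/hinge arrays. The groups did not overlap, but the gap was small, and the log2 difference was -0.30 (SE 0.21; adjusted p = 0.778 in limma). CycD, which encodes that cyclin, measured 372 ± 39.1 for body wall and 450.3 ± 78.5 for wing/hinge (mean ± SD, n = 3 each), a log2 difference of -0.26 (95% interval -0.83 to 0.30), with overlapping groups. The S phase pair differed in how tightly its values lay. Cdk2 gave 634 ± 66.8 and 670 ± 9.26 (SD, n = 3 each), and its log2 difference of -0.08 had an interval of -0.58 to 0.42.

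CycE, whose product starts S phase, had the largest replicate spread of the 29 genes on the log2 scale. It gave 338.5, 196.4 and 107.6 on the body wall arrays and 215.5, 476.4 and 218.5 on the wing/hinge arrays. The groups overlapped widely, and the spread within each fragment exceeded the gap between their means. The log2 difference was -0.55 with an SE of 0.51, and its interval of -1.76 to 0.66 leaves room for more than a 2-fold difference.

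Among mitotic cyclins, CycB gave 2106, 2754 and 3330 on the body wall arrays and 2232, 2194 and 3087 on the wing/hinge arrays. Its order followed the range of the arrays and not the fragment: the 3 narrow-range arrays, which include samples of both fragments, lay above the 3 wide-range ones. The log2 difference between fragments was 0.12 (95% interval -0.54 to 0.77), and it was -0.05 with the array range as a block. CycB3, a further mitotic cyclin, had 805 ± 123 for body wall and 930 ± 80.1 for wing/hinge (SD, n = 3 each), with overlapping values and a log2 difference of -0.22. The only gene analysed here among the regulators of Cdk1 phosphorylation was twe, a Cdc25 phosphatase known for its role in meiosis. It ran from 54.6 to 119.4 in body wall and from 47.1 to 114.3 in wing/hinge, close to the level of the controls, and its log2 difference was 0.02 (95% interval -1.02 to 1.05) and below 0 with either other scaling.

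The E2F and Rb factors lay on both sides of 0. E2f1 had no stable side: it was below 0 with arrays scaled to the same median (-0.04), with the array range as a block (-0.14), without body wall 3 (-0.17) and without wing/hinge 1 (-0.18). E2f1, the activating E2F, gave 644.6, 969 and 1280 on the body wall arrays and 627.7, 1013 and 1097 on the wing/hinge arrays. Both fragments covered nearly the same range, and the log2 difference was 0.07 (SE 0.35). E2f2, the repressing E2F, had the most positive difference of the 29 genes at 0.23 (95% interval -0.32 to 0.78), with 772 ± 50.9 for body wall and 664 ± 115 for wing/hinge (SD, n = 3 each). Dp, the dimer partner of both, gave 666.8, 545.9 and 655.3 on the body wall arrays and 682.9, 692.2 and 802.7 on the wing/hinge arrays. All its wing/hinge values were higher, by a small margin at the closest pair, and the log2 difference was -0.22 (SE 0.22; adjusted p = 0.844 in limma). For Rbf, the fly Rb protein that binds E2F, the values were 226 ± 15.7 and 274.5 ± 48.1 (SD, n = 3 each), and the log2 difference was -0.27.

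**Figure D2:**
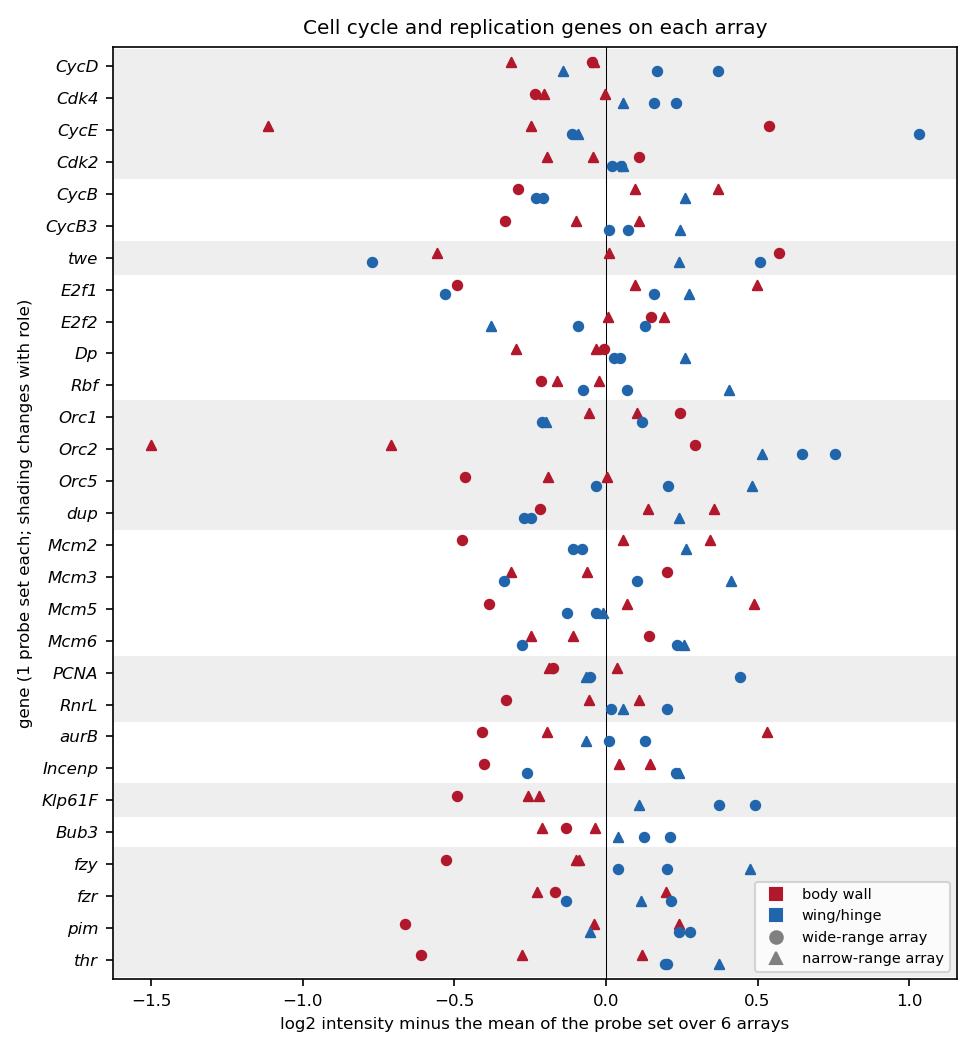
Log2 intensity of each gene on each array, minus the mean of its probe set over the 6 arrays, with body wall in red, wing/hinge in blue, circles for wide-range and triangles for narrow-range arrays. The widest scatter belongs to Orc2, CycE and twe, and the 3 blue points of Cdk4, Dp, Orc2, Klp61F, Bub3, fzy and thr lie right of all the red ones.

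Origin licensing held the largest difference of the 29 genes. Orc2, a subunit of the origin recognition complex, gave 155.5, 77.7 and 44.9 on the body wall arrays and 214.5, 198.7 and 181.5 on the wing/hinge arrays. The wing/hinge values lay close together, while those of body wall spread more than 3-fold and reached the level of the controls on body wall 2 and body wall 3. The log2 difference was -1.28 (SE 0.45; 95% interval -2.34 to -0.21) and the adjusted p was 0.427 in limma. Its size depended on the arrays used, at -1.62 on the narrow-range arrays, -0.41 on the wide-range arrays, and -1.74 without body wall 1, where the adjusted limma p was 0.139.

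Other subunits of the complex did not share that size. Orc5 gave 203 ± 32.6 for body wall and 275 ± 49.2 for wing/hinge (SD, n = 3 each), a log2 difference of -0.43 (95% interval -1.03 to 0.16). Orc1 lay on the other side of 0, at 0.19, with 205 ± 21.4 and 179.7 ± 24.1 (SD, n = 3 each). The difference between subunits was not tested. The value for dup, the Cdt1 protein that loads the helicase onto origins, was 0.18 (SE 0.27), and its 3 narrow-range arrays again lay above the wide-range ones. With the array range as a block its difference was 0.02.

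The MCM helicase unwinds DNA at the fork. Of its 4 subunit genes among the 29, 3 were below 0 and 1 above, with a median of -0.08 and each interval inside 2-fold. A further subunit gene outside the 29, dpa, lay apart from them at 0.58, with an interval of -0.06 to 1.22 that leaves room for more than 2-fold. Mcm2 gave -0.05 (526 ± 144 against 534 ± 79.5), Mcm3 gave -0.12 (687 ± 122 against 754 ± 191), Mcm5 gave 0.11 (629.5 ± 187 against 564 ± 24.1) and Mcm6 gave -0.14 (257 ± 35.9 against 286.5 ± 56.2), as log2 differences with mean intensities ± SD (n = 3 each). In Mcm2 and Mcm5 all narrow-range values exceeded all wide-range values, and with the array range as a block their differences were -0.22 and -0.01. Such an order held for 4 of the 29 genes, CycB and dup being the others. It held for 8.25% of all probe sets and 9.88% of those above the control maximum on every array. No member had the opposite order, against 6.74% of all probe sets and 8.22% of those above the control maximum on every array.

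PCNA, the sliding clamp of DNA polymerase, gave 3791, 4390 and 3753 on the body wall arrays and 5817, 4127 and 4087 on the wing/hinge arrays. Its wing/hinge mean was raised by wing/hinge 1 alone, and the other values of both fragments lay together. The log2 difference was -0.22 (95% interval -0.80 to 0.36). RnrL, the large subunit of ribonucleotide reductase, which makes deoxynucleotides, gave 985 ± 147.9 and 1113 ± 75.9 (SD, n = 3 each) and a log2 difference of -0.18 (95% interval -0.72 to 0.35).

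Genes of the spindle and of mitotic exit, Klp61F, thr and fzy, held 3 of the 5 largest differences, all uncalled and on the wing/hinge side. Klp61F, the kinesin that pushes spindle poles apart, gave 1719, 2072 and 2019 on the body wall arrays and 3393, 3126 and 2606 on the wing/hinge arrays. Every wing/hinge array was higher than every body wall array, and the body wall values were tight. The log2 difference was -0.65 (SE 0.23; 95% interval -1.18 to -0.11) and the adjusted p was 0.427 in limma. It was -0.92 on the wide-range arrays and -0.35 on the narrow-range arrays, and -0.64 with the array range as a block.

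The 4 genes of the anaphase machinery were all below 0, with a median of -0.39. The gene fzy, which encodes the Cdc20 activator of the anaphase-promoting complex, gave 575.8, 779 and 774.8 on the body wall arrays and 952.8, 852.8 and 1153 on the wing/hinge arrays. The groups did not overlap, and the log2 difference was -0.48 (SE 0.25; adjusted p = 0.666 in limma). The separase complex gene thr gave 103.1, 170.9 and 129.9 on the body wall arrays and 180.2, 181.1 and 203.8 on the wing/hinge arrays. Its wing/hinge values were the higher ones throughout, with a log2 difference of -0.51 (SE 0.26; adjusted p = 0.659 in limma).

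The other members of the group lay closer to 0. The securin gene pim, whose product holds separase inactive, gave 278 ± 83.3 and 335.5 ± 40.5 (SD, n = 3 each) and a log2 difference of -0.31, which was -0.92 on the wide-range arrays and 0.15 on the narrow-range arrays. For fzr, the Cdh1 activator of the complex that acts in G1 and in endocycles, the log2 difference was -0.13 (95% interval -0.69 to 0.43). In this group body wall 1 had the lowest value in fzy, pim and thr.

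Among checkpoint and chromosomal passenger genes, Bub3, a spindle checkpoint protein, had the smallest replicate spread of the 29 genes. It gave 2090, 2231 and 1979 on the body wall arrays and 2651, 2497 and 2351 on the wing/hinge arrays. The groups stood apart without overlap, yet the log2 difference was only -0.25 (SE 0.21; 95% interval -0.74 to 0.24; adjusted p = 0.813 in limma). The SE that limma assigns is larger than the spread of these values alone, as it borrows from the spread of all probe sets. The kinase gene aurB gave 312 ± 113 and 310.5 ± 21.1 (SD, n = 3 each) and Incenp, its partner in the passenger complex, 952 ± 182 and 1049 ± 196 (SD, n = 3 each). Their log2 differences were -0.05 and -0.14, with overlapping groups.

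The arrays of a fragment differed among themselves in these genes. The median deviation of the 29 genes from their own 6-array means was -0.22 on body wall 1, -0.00 on body wall 2 and -0.10 on body wall 3, and 0.13, 0.05 and 0.24 on wing/hinge 1, 2 and 3. All wing/hinge medians thus lay above all body wall medians, by a small margin between body wall 2 and wing/hinge 2. For the 27 members above the control maximum on every array they were -0.24, -0.00 and -0.06 on body wall 1, 2 and 3. On wing/hinge 1, 2 and 3 they were 0.12, 0.05 and 0.12. Over all bright probe sets the same medians lay between -0.02 and 0.02. Body wall 1 had the lowest value of the 6 arrays in 14 of the 29 genes, against 22.2% of bright probe sets, and wing/hinge 3 the highest in 9, against 17.2%. The median difference was -0.31 on the wide-range arrays, where body wall is represented by body wall 1 alone, and -0.16 on the narrow-range arrays, where wing/hinge is represented by wing/hinge 3 alone. With the array range as a block it was -0.22, and limma then gave 5 of the 29 genes an unadjusted p under 0.05 (Orc2, Orc5, Klp61F, fzy and thr), as it did 9.78% of all probe sets, and again none an adjusted one.

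**Figure D3:**
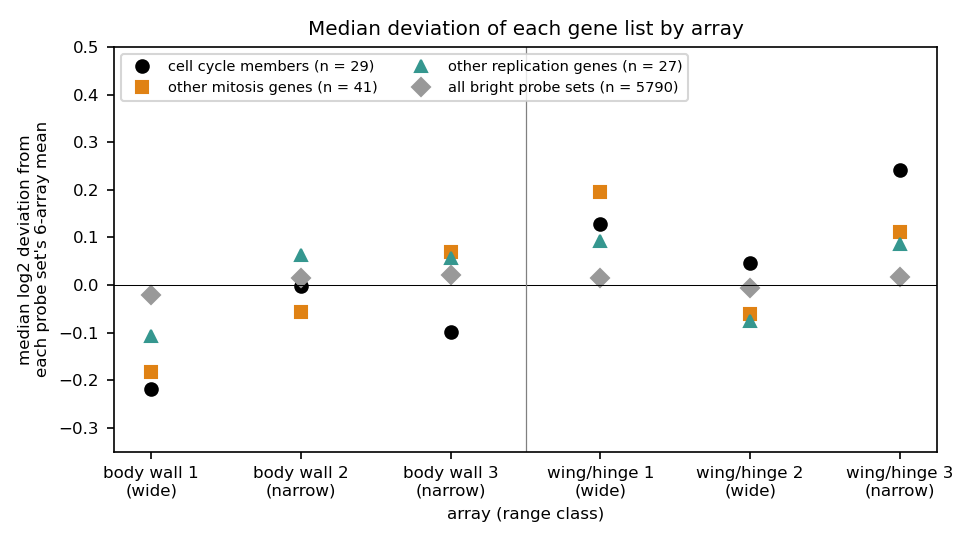
Median log2 deviation of 4 gene lists from each probe set's 6-array mean, by array, with the range class of the array under its name. The 29 cell cycle members run from -0.22 on body wall 1 to 0.24 on wing/hinge 3, while all bright probe sets run from -0.02 to 0.02. The 27 members that are bright on every array, not drawn apart, have a median of 0.12 on wing/hinge 3.

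Other genes of the cell cycle and of growth control, on 4 lists that share no gene with the 29, gave no call either (limma, 125 probe sets of 114 genes tested). Of the 125, 5 or 4% had an unadjusted limma p under 0.05. The share was 8.97% of all probe sets and 5.91% of those above the control maximum on every array. The median log2 difference of the 4 lists was -0.05, with 58.4% below 0. On the list of other replication genes the median over 27 probe sets was -0.04. This median was the value of mei-38, a spindle gene that the list also holds. At the low end was Cdc6, a helicase loader (-0.99, SE 0.29, adjusted p = 0.309 in limma). The MCM subunit gene dpa was at the high end (829.3, 1036 and 1129 on the body wall arrays, 870.3, 587.2 and 568.1 on the wing/hinge arrays, adjusted p = 0.606 in limma). Cdc6 gave 103.1, 145.1 and 194.9 on the body wall arrays and 294.5, 287.2 and 269.3 on the wing/hinge arrays, so that its groups did not overlap.

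Of the mitosis genes outside the 29 members, 29 of 41 probe sets were below 0, with no call and a median of -0.11. Bub1, a checkpoint kinase gene, was the lowest at -1.65 (SE 0.40; adjusted p = 0.19 in limma). It gave 18.3, 53 and 46.8 on the body wall arrays and 136.5, 100 and 115.1 on the wing/hinge arrays, so the body wall values lay at the level of the controls. The condensin gene barr gave -0.59, not called. For the kinesin gene sub no array exceeded the control maximum, so its difference is not read. The highest value, 0.57, came from a probe set of the centromere protein gene Cenp-C that was above the control maximum on 1 of 6 arrays. Its brightest probe set gave -0.10 and the remaining dim one -0.46, none called. Over 39 probe sets on the list of other cell cycle control genes the median was -0.00, again with no call. That list also holds cyclins and kinases known mainly for roles in transcription, among them CycC, CycK, CycT, Cdk8 and Cdk9. Its values ran from tefu, the ATM kinase, at -0.49 to Cdc27, an anaphase-promoting complex subunit, at 1.00. The value of Cdc27 rested on wing/hinge 2, which read 24.4, and it was 0.20 without that array.

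**Figure D4:**
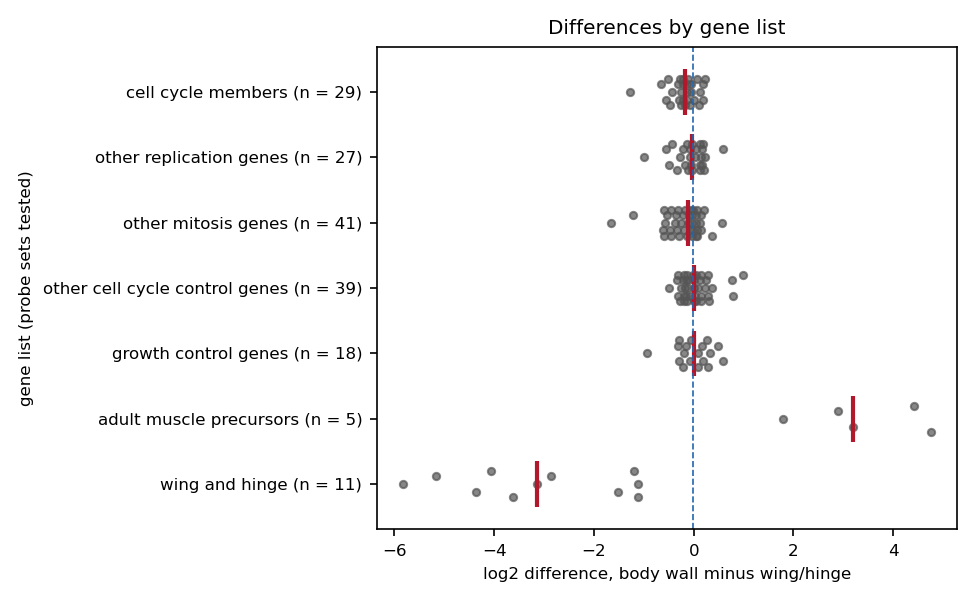
Log2 difference (body wall minus wing/hinge) of each probe set tested, by gene list, with list medians in red and the median of all bright probe sets as a dashed line. The cell cycle lists lie around 0 (median -0.18 for the 29 members), while muscle precursor markers lie to the right and wing and hinge markers to the left.

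Markers of some cells other than the disc epithelium differed between the fragments. All 5 measured markers of adult muscle precursors, mesodermal cells under the notum that also divide in the larva, passed the test toward body wall (log2 differences 1.79 to 4.75), of 6 listed. Their summed intensity was 2264 to 2455 in body wall and 242.4 to 304.8 in wing/hinge, with the wing/hinge mean of Him (19.5) under the floor. The 6 haemocyte marker probe sets summed to 1386 to 1633 in body wall and 337 to 441.9 in wing/hinge, with 1 of 5 tested called (Col4a1) and NimC1, a defining marker, not above the floor on any of the 6 arrays. Without the collagen genes Col4a1 and vkg, the other 4 probe sets summed to 193.4 to 401.3 and 101.8 to 227, which overlap. Of these, Hml, Pxn and srp had log2 differences of 0.82, 0.67 and 0.70, none called. The groups overlapped for Hml and Pxn but not for srp, which exceeded the control maximum on no array. Of 3 fat body marker probe sets none was called, and they summed to 847 to 1036 against 214.4 to 705. Larval muscle markers overlapped (420.4 to 655 against 323.4 to 509.6). Of the 3 tracheal markers measured, btl gave 1.82, was not called and exceeded the control maximum on 1 of 6 arrays. The others, vvl at -1.84 (adjusted p = 0.0224 in limma) and knk at -0.05, are not confined to tracheal cells. Markers of the peripodial membrane and other discs summed to 555 to 745 in body wall and 711 to 735 in wing/hinge. Of their 5 probe sets tested none was called, with 2 above 0 and 3 below. They ran from eya at -0.82 to a probe set of Antp at 0.69, each with groups that did not overlap. The part of these cells in the values of the cell cycle genes was not tested.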

How the data were processed

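RNA of 3 body wall and 3 wing/hinge samples was hybridised to Affymetrix arrays, from about 8 ug each, per the labels. The authors deposited linear intensities, with 1 value for each probe set on each array. Their 2% trimmed means were 300.0 to 300.1 on every array, so they were used as scaled. The sources used here do not give the summary algorithm or software.

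Gene names came from the platform annotation (12443 of 13966 fly probe sets with 1 symbol, 327 with several, 1196 with none). All 29 member gene IDs matched the RefSeq gene table (Release 6) under the same symbol. The files name no genome build, so no coordinates are given.

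Values under the floor were raised to it before log2. Probe sets above it on at least 3 of 6 arrays were tested, and 44 control probe sets were left out. limma 3.58.1 (R 4.3.3; lmFit, eBayes, two-sided, no block) was adjusted over all 11698 probe sets tested. With 3 arrays a group, an exact permutation test reaches p = 0.1 at the lowest, so none was used. The fit was also run on simulated data with independent noise for each probe set. Those data hold no differences in array range or RNA quality, so they do not check the fit against these.

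Members and lists were chosen with earlier results of these data known. All members were named, and of the related lists the extremes and called genes. The genes sub, barr and NimC1 were named, and the haemocyte sum without collagen genes was added, after values were seen. Deviations of same-numbered arrays correlated at 0.06, -0.16 and 0.19, and those of differently numbered arrays at -0.24 to 0.18. With so few arrays these values cannot show whether replicate numbers pair the arrays. No pairing was used in the fit. Body wall 1 and 2 carry related aliases. The labels do not say whether they are repeats of the same RNA, and they were counted as separate samples. Their log2 differences had an SD of 0.814, against 0.735 to 0.868 for other pairs within a fragment. As these arrays also differ in range class, that SD cannot show whether they share RNA.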

Additional observations from a re-analysis of the deposited data

How the results depend on the processing

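No cell cycle member and no related gene was called under any of the 18 alternatives with a test (scaling, floor, filter, variance model, blocks, body wall 1 and 2 averaged, each array left out), and the lowest adjusted limma p of a member was 0.139 (Orc2 without body wall 1). The members with an unadjusted limma p under 0.05 numbered 0 to 5. Without a filter they numbered 5, where 1296 of all 13966 probe sets had such a p. Of the 29 genes, 21 kept the sign of their difference in all these alternatives. Those that did not were CycB, twe, E2f1, Mcm2, Mcm3, Mcm5, aurB and Incenp, all uncalled throughout. The median of the members stayed below 0. It was -0.29 with arrays scaled to the same median, which moved the median of all probe sets from 0.03 to -0.07, and -0.31 on the wide-range arrays. It ran from -0.24 to -0.13 with single arrays left out, the latter without wing/hinge 3. Over all probe sets the 107 calls became 161 with an intensity trend and robust estimation, 10 with the replicate block, 52 with the array range as a block and 49 with body wall 1 and 2 averaged, and 34 to 47 with 1 array left out; the cause was not tested. The replicate block left no member called, with 1 at an unadjusted p under 0.05. Values near the controls limit what can be said of twe and Orc2.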

Other observations

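Growth control genes, which set tissue size through the Hippo and insulin pathways, were not called in either direction (limma, 18 probe sets tested). Of the 18, 1 had an unadjusted limma p under 0.05. The share was 8.97% of all probe sets and 5.91% of those above the control maximum on every array. The median log2 difference of the list was 0.01, with 9 probe sets on each side of 0. The lowest was ex, an upstream component and target of the Hippo pathway, which measured 336.6, 465 and 327.8 in body wall and 812, 515.7 and 855.3 in wing/hinge. Its groups did not overlap, and the log2 difference was -0.93 (SE 0.29; limma adjusted p = 0.368). A dimmer probe set of ex was not tested, as its values lay mostly under the floor. The highest value, 0.59, came from a probe set of kibra, a further upstream component, that was not above the 95th percentile of the controls on any array. The brighter kibra probe set gave 0.19, and neither was called.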
